A study of Rattus norvegicus with 6 samples.

Results

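The antigen-presenting genes of MHC class II were measured in RNA of rat subchondral bone, the layer of bone under joint cartilage. The 8 genes were chosen by name from the deposited table of 22050 annotated rat genes: Cd74, Ciita, RT1-Da, RT1-Db1, RT1-Ba, RT1-Bb, RT1-DMa and RT1-DMb. Each had 1 row, so no choice between rows was needed, and the median over libraries reached 1 FPKM for all 8, as it did for 11625 annotated genes in all, called expressed here. FPKM is a gene's fragment count divided by the gene's length and by the depth of the library. The series compared rats at low and at normal temperature, but no label used here ties any of the 6 libraries (S10, S12, S13, S20, S21 and S23) to a temperature. Nothing in the labels says that they come from separate animals, so a p-value across them refers to these libraries only and not to animals. All 6 libraries were therefore kept without a group, each value is given by library, and no cold effect was tested.

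MHC class II molecules are pairs of an alpha and a beta chain that carry peptides from the endosome to the cell surface, where CD4 T cells read them. In the rat the RT1-D and RT1-B loci encode the classical pairs, the counterparts of human HLA-DR and HLA-DQ. Cd74, the invariant chain, blocks the groove of a new class II molecule until the RT1-DM pair exchanges its remnant for a peptide. Ciita, the class II transactivator, binds no DNA itself but is recruited by factors sitting on the X and Y boxes of class II promoters. In marrow the carriers of class II are known to be B cells, dendritic cells and part of the monocytes and macrophages.

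Total counts were 39990624 to 59200981 per library. The bone markers Spp1 (396 to 754 FPKM), Bglap (255 to 610 FPKM) and Col1a1 (166 to 362 FPKM) were high in every library of this bone tissue. S12 stood apart in soft tissue RNA: its summed level over 4 skeletal muscle genes was 107 FPKM against 12.2 to 44.0 FPKM in the other libraries, and over 5 adipocyte genes 434 FPKM against 81.6 to 248 FPKM. S10 had the largest share of globin counts, 27.6%, and S23 the smallest, 10.4%. In bulk tissue, fewer cells of a type and less RNA per cell cannot be told apart.

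Cd74 was the most abundant of the genes by far. Its level was 358 FPKM in S10, 577 FPKM in S12, 396 FPKM in S13, 302 FPKM in S20, 311 FPKM in S21 and 342 FPKM in S23. S12 stood above the other libraries, whose highest was S13, and lay 1.91-fold above S20. The median of 350.2 FPKM exceeded that of 98.2% of the expressed genes. Cd74 took between 54.98% (S23) and 65.9% (S12) of all counts of the 8 genes.

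RT1-Da, the alpha chain of the DR-like pair, was the highest of the groove-forming chains. It had 83.9 FPKM in S10, 116 FPKM in S12, 98.3 FPKM in S13, 59.8 FPKM in S20, 76.6 FPKM in S21 and 104 FPKM in S23. Its partner RT1-Db1, the beta chain, had 36.4 FPKM in S10, 55.04 FPKM in S12, 35.1 FPKM in S13, 25.1 FPKM in S20, 26.7 FPKM in S21 and 32.1 FPKM in S23. Both were highest in S12 and lowest in S20, and S23 stood second for RT1-Da but below S10 and S13 for RT1-Db1. A further beta gene, RT1-Db2, had 0.627 to 3.18 FPKM. Reads of such closely related genes can be split or shared between the rows by the counting, so the levels of RT1-Db1 and RT1-Db2 are uncertain to that extent.

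The DQ-like chains had lower medians, though RT1-Ba exceeded RT1-Db1 in S21 and S23. RT1-Ba, the alpha chain, had 26.0 FPKM in S10, 32.4 FPKM in S12, 26.0 FPKM in S13, 18.6 FPKM in S20, 29.4 FPKM in S21 and 32.2 FPKM in S23. RT1-Bb, the beta chain, had 17.5 FPKM in S10, 24.3 FPKM in S12, 18.7 FPKM in S13, 12.9 FPKM in S20, 14.6 FPKM in S21 and 19.2 FPKM in S23. Again S20 was lowest for both, while S12 and S23 were all but level for RT1-Ba. RT1-Da exceeded RT1-Ba in every library, by a factor of 2.61 (S21) to 3.78 (S13).

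The peptide-loading chains followed another order. RT1-DMa, the alpha chain of the loading pair, had 25.3 FPKM in S10, 26.0 FPKM in S12, 31.1 FPKM in S13, 19.99 FPKM in S20, 27.5 FPKM in S21 and 35.0 FPKM in S23. It was highest in S23 and again lowest in S20. RT1-DMb, the beta chain, had 48.0 FPKM in S10, 18.6 FPKM in S12, 40.7 FPKM in S13, 22.2 FPKM in S20, 31.0 FPKM in S21 and 36.5 FPKM in S23. It was lowest in S12, the library where 6 of the 8 genes were highest. The shares of all expressed genes that were highest in S12 or lowest in S20 are not given here. Such counts, here and further on, are therefore not read as particular to class II.

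Ciita was scarce. It had 0.531 FPKM in S10, 2.42 FPKM in S12, 1.69 FPKM in S13, 1.59 FPKM in S20, 0.878 FPKM in S21 and 1.25 FPKM in S23, from 123 to 596 counts. Only 5.41% of the expressed genes had a lower median. Its highest value was 4.56 times its lowest, the widest fold among the 8 genes, and S10, where Ciita was lowest, was not the lowest library of any other.

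**Figure D1:**
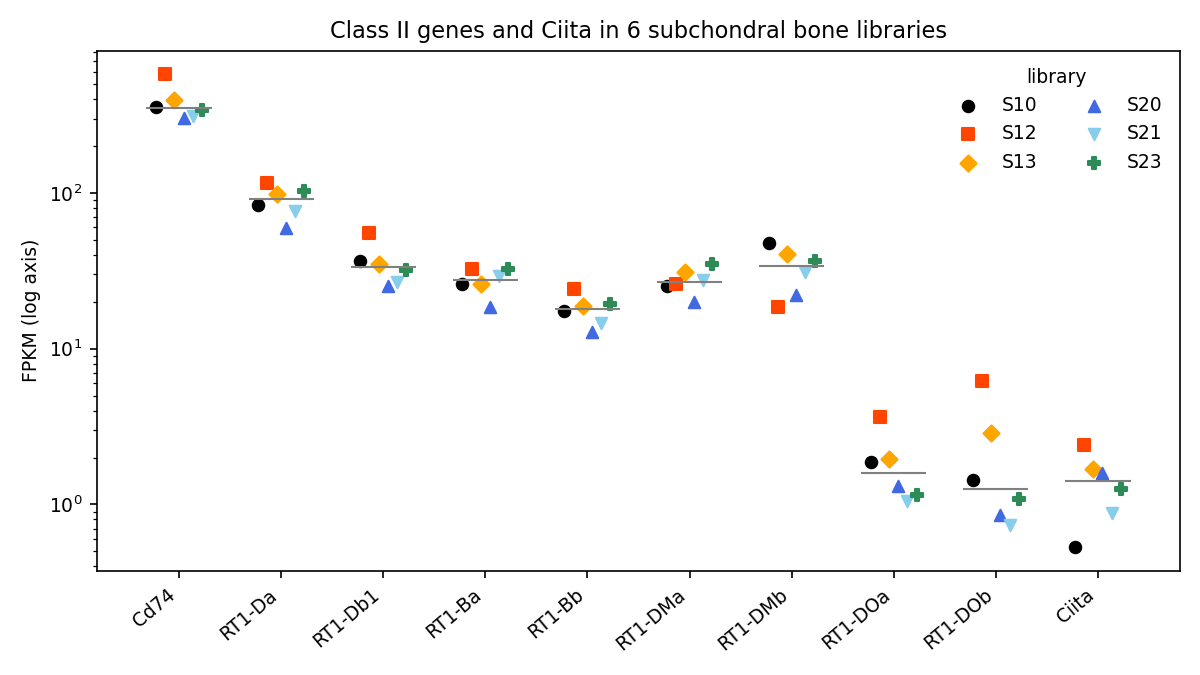
FPKM (log axis) of the 8 genes, with RT1-DOa and RT1-DOb beside them, in each of the 6 libraries; grey lines are medians over the libraries. Cd74 lies above 300 FPKM in every library, RT1-DMb is lowest in S12 (18.6 FPKM), and Ciita spans 0.531 to 2.42 FPKM.

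Promoter sequences were compared for the X and Y boxes at which Ciita is recruited. Windows of 300 bases, from 250 before to 50 after the annotated start (RefSeq, build GRCr8), were in the reference table for 6 of the 8 genes, and RT1-DMb and Ciita were not matched. The stretches below are given to let the X and Y boxes be read, all 5′ to 3′ on the gene's own strand. They come from chr20:4515328-4515378 (plus strand) for RT1-Da, chr20:4560230-4560279 (minus strand) for RT1-Db1, chr20:4604167-4604216 (minus strand) for RT1-Bb and chr20:4712387-4712437 (minus strand) for RT1-DMa. RT1-DOb, a chain described further on, is from chr20:4627594-4627641 (minus strand), RT1-Ba from chr20:4576969-4577026 (plus strand) and Cd74 from chr18:56526972-56527029 (plus strand). Capitals mark matches to ACNGATG, the core of the X box, and to ATTGG, the core of the Y box, or its complement CCAAT.
RT1-Da: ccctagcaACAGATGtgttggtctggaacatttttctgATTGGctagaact
RT1-Db1: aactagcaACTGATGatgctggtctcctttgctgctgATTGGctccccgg
RT1-Bb: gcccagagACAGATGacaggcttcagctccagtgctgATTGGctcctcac
RT1-DMa: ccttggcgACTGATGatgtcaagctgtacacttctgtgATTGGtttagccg
RT1-DOb: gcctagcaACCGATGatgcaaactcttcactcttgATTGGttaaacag
RT1-Ba: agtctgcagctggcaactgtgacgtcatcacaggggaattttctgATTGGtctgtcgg
Cd74: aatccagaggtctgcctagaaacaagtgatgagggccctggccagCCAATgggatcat

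RT1-Da, RT1-Db1, RT1-Bb and RT1-DMa, 4 of the 6 matched genes, held the X core followed on the same strand by the Y core, with 22 or 23 bases between them; RT1-DOb had 20 bases between and RT1-Db2 21. RT1-DOa and RT1-Ha held the Y core and no match to the X core. The Y core lay in all 6 windows on either strand. Of the 33469 promoter windows of the table, 10.2% held the X core and 37.5% the Y core on either strand, and 0.335% held both in this order with at most 30 bases between. The letters of the X core were not in the windows of RT1-Ba and Cd74. The motifs were chosen with the sequences in view, and a match is a description of letters, not of binding.

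The ranges of the 8 genes lay near those of other genes. On the scale of log2(FPKM + 1), the range over the 6 libraries was 0.77 for RT1-Ba, 0.78 for RT1-DMa, 0.87 for RT1-Bb, 0.93 for Cd74, 0.94 for RT1-Da, 1.10 for RT1-Db1, 1.16 for Ciita and 1.32 for RT1-DMb. The pseudocount of 1 understates the spread of Ciita, whose range was 2.0 with a pseudocount of 0.1. A range of at least 1 log2 unit was found for 3 of the 8 genes and for 36.6% of the 11625 expressed genes, so the share among the members was near the background. The median range was 0.94 for the 8 genes and 0.83 for all expressed genes. None of the 8 reached a range of 2, which 4.68% of the expressed genes did. Without S12, only RT1-DMb of the 8 had a range of at least 1, as did 33.3% of the expressed genes, and the range of Cd74 was 0.39.

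The 8 genes together took 0.109% of all counts in S12 (95% exact Clopper-Pearson interval 0.1085 to 0.1104%), 0.0851% in S13 (0.0843 to 0.0858%) and 0.0804% in S23 (0.0796 to 0.0812%). The share was 0.0774% for S10 (0.0765 to 0.0783%), 0.0671% for S21 (0.0665 to 0.0678%) and 0.0605% for S20 (0.0598 to 0.0613%). The intervals cover counting error only. S12 exceeded S20 by a factor of 1.81, and by 1.80 when the 4 named globin rows were left out of the total.

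Pairs of the 8 genes ranged from close to opposite in their pattern over the libraries. RT1-Da and RT1-Bb had a Pearson r of 0.96 over the 6 libraries on the log2(FPKM + 1) scale, RT1-Db1 and Cd74 one of 0.97, and RT1-Da and RT1-Db1 one of 0.82. RT1-Ba followed less closely, with 0.57 against RT1-Db1 and 0.52 against Cd74. RT1-DMa had 0.76 with RT1-Ba but 0.14 with Cd74 and 0.19 with RT1-Db1. RT1-DMb and Ciita departed most: against the mean deviation of the other 7 genes, r was -0.20 for RT1-DMb and 0.17 for Ciita, while the other 6 genes had 0.58 to 0.99. With each other they had an r of -0.74. These are descriptions over 6 libraries that share the scaling of each library. Under TMM scaling, which raised S10 by 0.37 log2 units at the median expressed gene and lowered S12 by 0.18, S10 became the highest library of 6 of the 8 genes and S12 of 2, while S20 stayed the lowest of 6. Ratios within a library, given next, are not altered by scaling. The highest and lowest libraries named further on are those of the deposited FPKM, with the order under TMM scaling where it bears on a comparison.

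**Figure D2:**
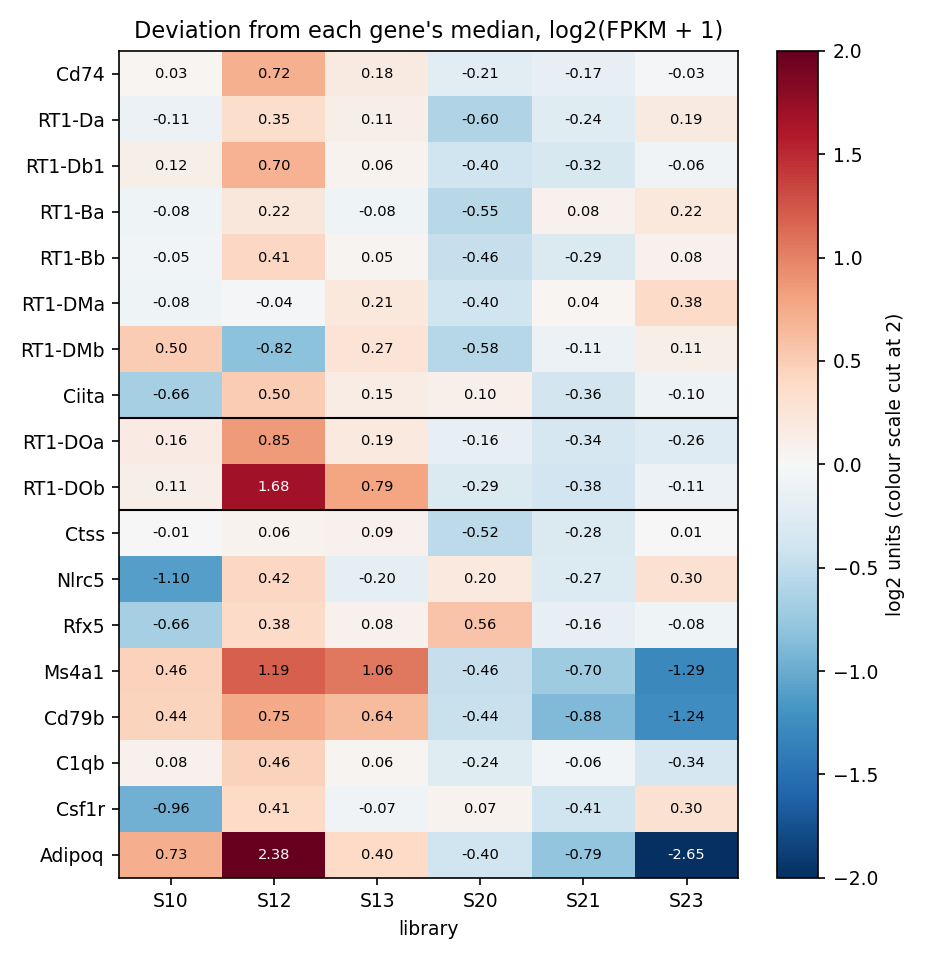
Deviation of each gene from its own median over the 6 libraries, in log2 units of FPKM + 1 (red above, blue below), for the 8 genes, for RT1-DOa and RT1-DOb, and for genes of other groups. S20 is below the median for 7 of the 8 genes (-0.60 for RT1-Da), S12 is above it for 6 and at -0.82 for RT1-DMb, and Adipoq marks the soft tissue RNA of S12.

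The alpha and beta chains of the DR-like pair kept a fairly even ratio and those of the loading pair did not. RT1-Da over RT1-Db1 in FPKM ran from 2.11 in S12 to 3.23 in S23, a 1.53-fold span. RT1-DMa over RT1-DMb was 0.527 for S10, 1.396 for S12, 0.764 for S13, 0.899 for S20, 0.889 for S21 and 0.961 for S23, a 2.65-fold span both in FPKM and in counts. S12 was the only library in which RT1-DMa exceeded RT1-DMb. RT1-DMb set against RT1-Da was 0.161 in S12 and 0.352 to 0.572 in the other libraries. In S12, RT1-DMb had 1156 counts or 26.2 CPM (counts scaled to the library total; 95% exact Poisson interval 24.7 to 27.7) and in S10 it had 2722 counts or 68.1 CPM (65.5 to 70.7). The intervals are far apart but cover counting error only, and with no groups the spread between replicates is unknown.

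RT1-Ba over RT1-Bb depends on the column used. In FPKM the ratio ran from 1.33 in S12 to 2.01 in S21. In counts it ran from 0.714 in S10 to 1.03 in S23. Counts per unit of FPKM, set against those of Cd74, varied 1.28-fold between libraries for RT1-Ba and by 1.02- to 1.05-fold for the other 6 genes. The highest library for RT1-Ba was S12 in FPKM and S23 in CPM, where S23 had 40.1 and S20, the lowest, 22.7. Its order among the upper libraries is therefore not settled by the table.

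**Figure D3:**
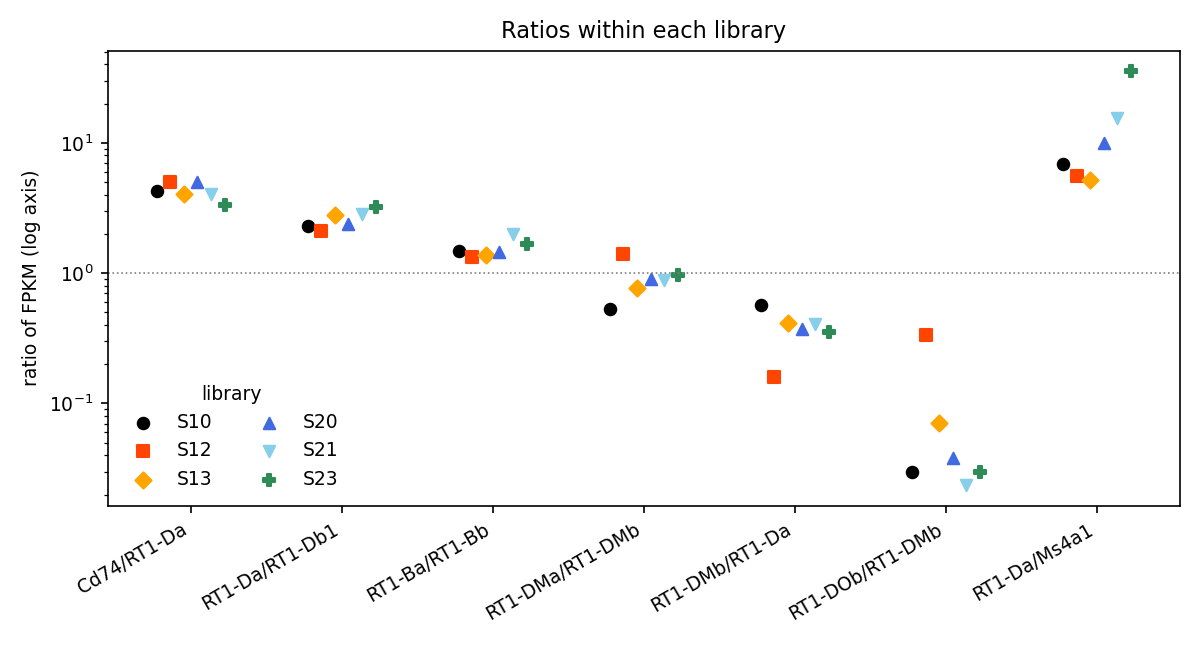
Ratios of FPKM within each library (log axis); the dotted line is 1. RT1-DMa over RT1-DMb is 1.396 in S12 and below 1 elsewhere, RT1-DOb over RT1-DMb is 0.335 in S12, and RT1-Da over the B cell gene Ms4a1 rises to 35.3 in S23.

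The DO chains, which bind DM and restrain it and are known mainly from B cells, were low. RT1-DOb had 1.43 FPKM in S10, 6.24 FPKM in S12, 2.89 FPKM in S13, 0.850 FPKM in S20, 0.734 FPKM in S21 and 1.09 FPKM in S23, from 48 to 371 counts. RT1-DOa ranged from 1.04 FPKM in S21 to 3.64 FPKM in S12. S12, S13 and S10 were, in this order, the 3 highest libraries for RT1-DOb, RT1-DOa and Cd74, and likewise for the B cell genes Ms4a1 (CD20) and Cd79b. Under TMM scaling the same 3 libraries led for all 5 genes, but in this order only for RT1-DOb, and S10 was highest for Cd79b and S13 for Ms4a1. Not all B cell markers shared the order: Cd37, the most abundant of them, was highest in S23 and lowest in S20 in the deposited FPKM. The ratio of RT1-DOb to RT1-DMb was 0.335 in S12 and 0.0237 to 0.0709 in the other libraries. RT1-Ha, the remaining class II row looked for, had 0 to 11 counts per library.

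Genes of the cells that carry class II differed in how far they followed it. Of 10 B cell markers 9 had a row and 8 reached a median of 1 FPKM, of which 6 were highest in S12 (3 under TMM scaling) and 5 lowest in S23 (5 under TMM scaling). The summed level of the list ran from 162 FPKM in S21 to 278 FPKM in S12, none was at 0 in all libraries, and Cd37 was the most abundant with a median of 114 FPKM. Summed levels, here and further on, are of the deposited FPKM and were not rescaled. Under TMM scaling 2 of the 8 markers were highest in S10. Cd37 had another order than most of the list, from 89.1 FPKM in S20 to 134 FPKM in S23. Under TMM scaling S20 was again lowest for Cd37, but S10 was highest. Ms4a1 had 12.2 FPKM in S10, 20.99 FPKM in S12, 19.0 FPKM in S13, 6.02 FPKM in S20, 4.91 FPKM in S21 and 2.93 FPKM in S23. RT1-Da per Ms4a1 was 35.3 in S23, 15.6 in S21 and 9.93 in S20, against 5.16 to 6.86 for S10, S12 and S13. S23 thus had the second highest RT1-Da and RT1-Bb with the lowest Ms4a1 but the highest Cd37. Under TMM scaling it ranked below S10, S12 and S13 for both chains and was again lowest for Ms4a1. Of 6 B cell precursor genes 4 (Igll1, Vpreb1, Dntt and Rag1) were highest in S20, the library in which 6 of the 8 class II genes were lowest, and Ebf1 and Rag2 were highest in S12.

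Of 10 macrophage and monocyte markers 9 reached a median of 1 FPKM and 6 were highest in S12 (4 under TMM scaling). Their summed level in the deposited FPKM was highest in S12, 703 FPKM, and lowest in S23, 463 FPKM, and Marco had 0 counts in all libraries. The sums were not rescaled, and 3 of the 9 markers were highest in S10 under TMM scaling. Cd74 per C1qb, a chain of complement C1q, varied 1.34-fold over the libraries, against 5.62-fold for Cd74 per Ms4a1. C1qb itself had a range of 0.81 log2 units and Ms4a1 one of 2.48. Other markers differed within each list, with a range of 1.36 for the macrophage gene Csf1r and 0.58 for the B cell gene Cd37. The contrast is therefore given for C1qb and Ms4a1 only and is not read as one between cell types. Of 10 dendritic cell markers only Clec10a, Itgax, Flt3 and Batf3 reached a median of 1 FPKM. Their list summed to 25.3 FPKM in S21 and 39.4 FPKM in S12. None of the 10 was at 0 in all libraries, and the defining genes Xcr1 and Clec9a stayed at or under 0.202 and 0.660 FPKM. The part of these cells in the class II levels was not tested, and neither was that of the soft tissue in S12.

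S10 and S12 deviated in the same direction for Ciita as for other genes of its length. Ciita is long, 5731 bases by the ratio of its counts to its FPKM, and Cd74 is 1272 bases by the same measure. Ciita deviated from its median by -0.66 log2 units for S10, 0.50 for S12, 0.15 for S13, 0.10 for S20, -0.36 for S21 and -0.10 for S23. The median deviation of 581 expressed genes of like length (5034 to 6247 bases) was -0.60 for S10, 0.33 for S12, -0.08 for S13, 0.34 for S20, -0.08 for S21 and 0.05 for S23. S10 thus stood low for long genes as a class, and S12 and S20 stood high. In S20, Ciita at 0.10 lay below its class at 0.34. With the median of each length class taken off, the range of Ciita fell from 1.16 to 0.52, its lowest library was S21 and its highest S13. Nlrc5, the relative of Ciita that drives class I genes, is 6293 bases long by this measure and was likewise lowest in S10 (0.332 FPKM) and highest in S12 (2.83 FPKM).

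Whether Cd74 follows Ciita over the libraries was asked in a single test. Pearson's r was 0.64 (exact permutation test over all 720 pairings of the 6 libraries, two-sided p = 0.164) and Spearman's rho 0.49 (exact permutation p = 0.356). The relation was not detectable with 6 libraries. Without S10 and S12, the libraries farthest from the median of Ciita, r was 0.47 over 4 libraries. Without S12 alone it was 0.07, and without S10 alone 0.83. S20 combined the third highest Ciita with the lowest Cd74, and Cd74 per Ciita ran from 190 in S20 to 674 in S10. Genes of the length of Ciita had a median deviation of 0.34 log2 units in S20 and -0.60 in S10. Those of the length of Cd74 had -0.11 and 0.01. The part of length in the span of the ratio was not tested.

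**Figure D4:**
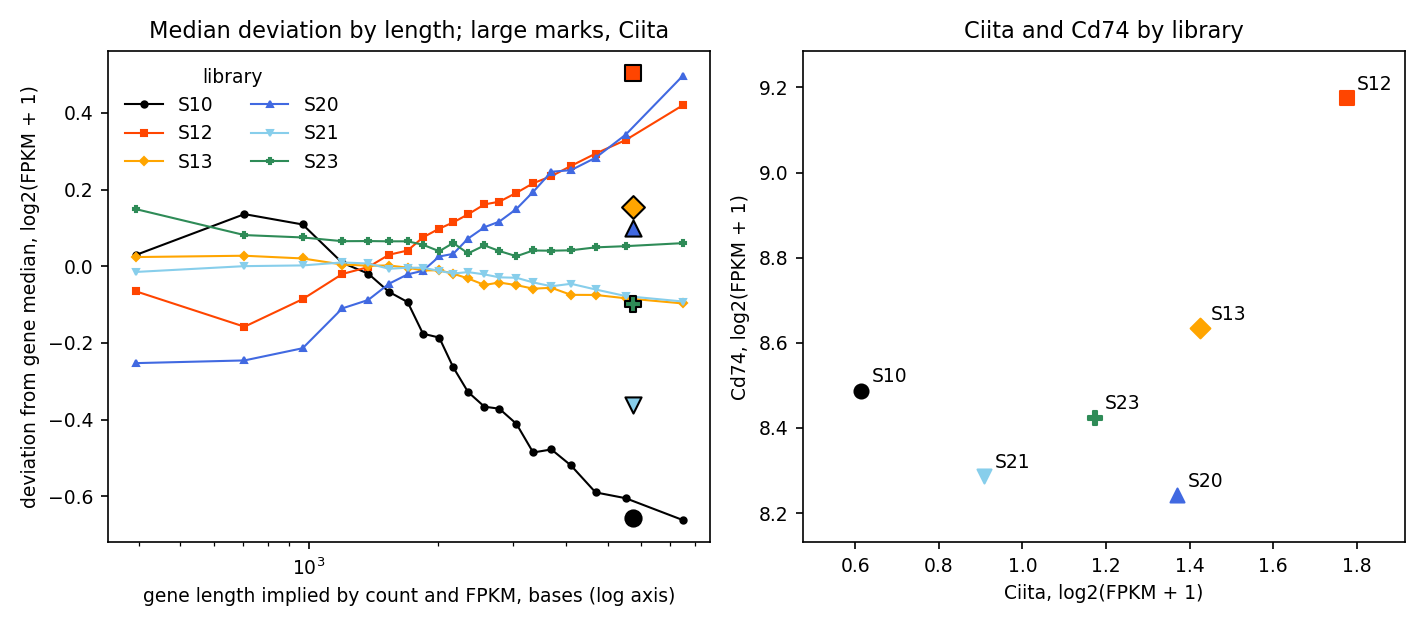
Left, the median deviation from gene medians (log2 of FPKM + 1) of expressed genes in 20 classes of length, by library, with Ciita as large marks; right, Ciita against Cd74 in each library. S10 falls to -0.66 and S20 rises to 0.50 in the longest class, and S12 is the upper right point of the scatter.

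The listed factors that seat Ciita on the promoter or act with it were all measured. The 8 of the list, the RFX subunits, the NF-Y subunits, Creb1 and Zxdc, all reached a median of 1 FPKM. Rfx5, the large RFX subunit, ranged from 3.34 FPKM in S10 to 9.14 FPKM in S20. It is 4561 bases long by the measure used for Ciita, and long genes as a class stood low in S10 and high in S20. The partners of Rfx5, Rfxap and Rfxank, ranged from 9.98 to 12.3 FPKM and from 8.30 to 12.3 FPKM. Of the NF-Y subunits, Nfya had 9.18 to 17.4 FPKM, Nfyb 12.7 to 16.0 FPKM and Nfyc 15.4 to 31.1 FPKM. A range of at least 1 log2 unit was found for Rfx5, Creb1 and Zxdc, and 5 of the 8 were lowest in S10 (3 under TMM scaling).

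Genes upstream of Ciita were present except for the cytokine itself. Ifng, the main known inducer of Ciita in cells other than B and dendritic cells, had 0 counts in all 6 libraries, which allows up to 3 counts, or 0.0507 CPM in S21 and 0.0750 in S10. Its receptor chains Ifngr1 and Ifngr2 had medians of 65.4 and 20.01 FPKM. Irf1, a factor induced by interferon-gamma, ranged from 13.5 to 30.3 FPKM, Irf8 from 25.5 to 52.0 FPKM and Spi1 (PU.1) from 64.7 FPKM in S20 to 156 FPKM in S23. Irf4 had 9.79 FPKM in S12, 6.51 FPKM in S13 and 2.58 to 4.60 FPKM elsewhere, and Prdm1, a repressor of Ciita in plasma cells, stayed between 0.644 and 1.59 FPKM. Jak1 and Jak2, kinases of the receptor, were lowest in S10, at 12.3 and 10.3 FPKM. Both are long, 4688 and 5231 bases by the measure used for Ciita, and S10 stood low for long genes as a class. The length class with a median of 4687 bases had a median deviation of -0.59 log2 units in S10. Socs1, an inhibitor of the receptor's signal and 1246 bases long, was highest in S10, at 4.09 FPKM. The interferon-gamma targets Gbp2, Cxcl9 and Cxcl10 were highest in S23, at 17.1, 1.91 and 1.38 FPKM. Of the 14 genes of this list with a row, 12 reached a median of 1 FPKM, and 6 of these had a range of at least 1.

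The enzymes and membrane proteins of the compartment that prepares peptides and cuts Cd74 had a median range of 0.61 log2 units. All 9 genes of the list with a row reached a median of 1 FPKM, and none had a range of 1. S20 was the lowest library of 5 of the 9 (6 under TMM scaling). Ctss, cathepsin S, which trims Cd74 in antigen-presenting cells, had 60.2 FPKM in S10, 63.5 FPKM in S12, 64.6 FPKM in S13, 42.0 FPKM in S20, 49.7 FPKM in S21 and 61.1 FPKM in S23. It was lowest in S20, as were Cd74, RT1-DMa and the 4 chains of the classical pairs, though its highest library was S13. Ctsb, another cathepsin, ran the other way and was highest in S20, at 628 FPKM. Ctsd, Ctsl and the lysosomal membrane genes Cd63 and Lamp1 had medians of 196, 49.6, 406 and 166 FPKM. Ifi30, a thiol reductase of the endosome, ranged from 74.0 FPKM in S20 to 133 FPKM in S23, and Lgmn, an endosomal protease, from 57.1 to 65.6 FPKM. Sppl2a, which cleaves the last membrane stub of Cd74, had 7.03 to 12.1 FPKM.

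Genes of other roles were sought whose pattern over the libraries came closest to that of the class II genes. The measure was Pearson's r over the 6 libraries with the mean deviation of the 8 genes, among expressed genes that are not members. The 15 closest had r from 0.944 to 0.996 and included Ctss (r = 0.946), the malate dehydrogenase gene Mdh1 (r = 0.996, 65.4 to 92.2 FPKM), the succinate receptor gene Sucnr1 (0.97, 0.659 to 3.46 FPKM), the cortisone-activating Hsd11b1 (0.96, 5.44 to 11.6 FPKM), the kinase gene Zap70 (0.95) and Ifitm3 (0.94, 41.4 to 74.5 FPKM). All 15 were lowest in S20, and 12 were highest in S12. The mean deviation used to choose them was itself lowest in S20 (-0.388) and highest in S12 (0.255), so these extremes follow from the choice. The list rests on scaling: 4 of the 15 were among the closest 15 under TMM scaling and 9 when genes with a median of 0.1 FPKM or more were let in. By Spearman's rho, 44 genes tied at or above the 15th value, and 12 of the 15 were among them. With 6 libraries and 11625 expressed genes, a high r is found for many genes, and nothing is read from the names.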

How the data were processed

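RNA-seq of 6 rat subchondral bone libraries was used; per the labels' protocols, libraries came from a SMARTER mRNA kit. The deposited table gives raw counts per gene and FPKM values, both made by the authors per the file headers; no source used here names the aligner, the counter or the strand setting. The submitters' processing notes name the mouse builds GRCm38 and mm10, whereas row IDs are rat, so gene levels are given without coordinates from the table. Of 30610 rows, 10 without values were dropped. The labels give no groups, so all libraries stayed unassigned. Of the names listed, 9 had no matching row.

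Ranges used log2(FPKM + 1) over annotated genes whose median reached 1 FPKM. Ratios used FPKM within a library. Gene length was inferred from counts and FPKM. Alternatives were a pseudocount of 0.1, TMM factors (edgeR 4.0.16), median-ratio factors (DESeq2 1.42.0), a common sum and leaving out each library; length correction in 20 bins, CPM and TMM ranking of the listed genes were added after seeing the data. Of the steps, only the range call and the ranking of genes by closeness of pattern were tested on simulated counts. Members, lists and tests were chosen with earlier results of these data known. Genes named outside the members were those of fixed lists (every gene of 4 lists on class II chains, promoter factors, peptide processing and interferon-gamma, up to 4 of the most abundant of others) and the 15 closest in pattern; Xcr1, Clec9a, Marco, Nlrc5, Rag1, Rag2, Csf1r, Psmb8 and Psmb9 were picked after their values were seen.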

Additional observations from a re-analysis of the deposited data

How the results depend on the processing

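No group was compared, so these are limits on levels. The count of genes with a range of at least 1 log2 unit was 3, was 2 to 4 under pseudocount, scaling, length and CPM alternatives (19.9%, length correction, to 52.7%, common sum, of expressed genes), and 1 (without S12) to 3 leaving out each library in turn (13.6%, without S10, to 36.2% of expressed genes). The correlation of Ciita with Cd74 (r = 0.64) passed an exact permutation test in 1 of 12 alternatives, the common sum (r = 0.812, p = 0.0278). After length correction r was 0.785, with p = 0.0556 by the same test. It was 0.21 under TMM and 0.18 under median-ratio scaling. Leaving out each library, r ran from 0.068 (without S12) to 0.831 (without S10). The permutation p ran from 0.0278 to 0.983 over all alternatives. The cause was not tested. The highest over the lowest share of counts, 1.81, ranged from 1.405 (without S12, then S13 over S20) to 1.81 leaving out each library in turn. S20 was the lowest library of 6 of the 8 genes as deposited and under both TMM and median-ratio scaling, of 3 with a common sum and of 4 after length correction. RT1-DMb was lowest in S12 and highest in S10 under every scaling tried. Its range was 1.92 under TMM scaling. No member had a second row, so that alternative gave no value. No paired analysis was possible because the labels give no groups. Of the 8 genes, depth limits Ciita most, with 123 counts in S10.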

Other observations

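Genes of class I presentation, which class II is often measured against, had a median range of 0.74 log2 units. All 14 of the list reached a median of 1 FPKM, and 1 of them, Nlrc5, had a range of at least 1 log2 unit. S20 was the lowest library of 6 of the 14 (10 under TMM scaling). B2m, the light chain of class I, ranged from 594 FPKM in S20 to 826 FPKM in S23, and the immunoproteasome genes Psmb8, at 76.9 to 137 FPKM, and Psmb9, at 56.2 to 94.6 FPKM, had the same lowest and highest libraries. Under TMM scaling S20 was again lowest for B2m, Psmb8 and Psmb9, but S10 was highest. RT1-A2 ranged from 94.9 FPKM in S20 to 171 FPKM in S12, though reads of class I genes can be split between close copies. RT1-Da per B2m was 0.153 in S12 and 0.101 to 0.125 elsewhere.

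Genes of the T cells that read class II were measured too. Cd4 had 8.04 FPKM in S10 and 31.1 FPKM in S12; monocytes and macrophages of the rat are known to carry CD4 too. Cd3e was highest in S10, at 4.70 FPKM, and lowest in S23, at 1.95 FPKM, and Cd3g from 3.78 FPKM in S20 to 12.5 FPKM in S13. Of the costimulatory genes, Cd86 (4.15 to 7.62 FPKM) and Cd40 (4.31 to 7.50 FPKM) reached a median of 1 FPKM, while Cd80 and Cd274 had medians of 0.503 and 0.748 FPKM. The plasma cell gene Jchain had 1214 FPKM in S10 and 2276 FPKM in S12.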
